A study of Oreochromis niloticus and Pundamilia nyererei with 6 samples.

Results

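In liver of ON (Oreochromis niloticus, Nile tilapia) and PN (Pundamilia nyererei), 927 and 845 pairs of loci lay head to head, that is, the minus-strand locus ended before the plus-strand locus began, with 1 to 1000 bases between them. A locus was built by joining overlapping transcripts that carried a strand and had at least 2 exons, on one sequence and strand, and its abundance is the FPKM (fragments counted per kb of transcript for each Mio mapped) summed over its transcripts. The 1772 pairs took in 3544 of the 40338 loci of both species. The rule used position, strand and exon number and no abundance, but it was applied to transcripts assembled from these same livers, from which the authors had removed unexpressed ones. Tail-to-tail pairs (a plus-strand locus that ends before a minus-strand locus begins) and same-strand neighbours within the same 1000 bases served for comparison. These classes held 1027 and 1554 pairs in ON and 988 and 1186 in PN. Only the limit was shared, and same-strand gaps were longer, with medians of 460 and 541 bases against 228 and 265 head to head.

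The libraries were made from snap-frozen liver of 3 male ON (tank-reared, generation ~93, from Manzala in Egypt) and 3 male PN (tank-reared, generation 1, from Lake Victoria), with one library per fish. No fish was treated, and the ages are not given in the sources used here. RNA was depleted of ribosomal RNA and the stranded libraries were sequenced as paired-end reads of 75 bases. The aligned bases, derived from coverage and FPKM, correspond to 11.3 to 13.3 Mio read pairs per library. In each ON library this is more than the average number of paired-end reads that the paper reports for these livers. It is therefore not a count of sequenced pairs. At this depth 3 reads on a transcript of 1 kb give an FPKM of 0.113 to 0.133, an approximate floor for counting error only. The transcripts carry serial names (mRNA28447, for example) with no gene symbol, so that liver markers were not checked and no member can be given a gene name or a role. A locus is called here by its most abundant transcript. Its exon number and its length are each the highest among its transcripts, not necessarily those of the transcript named.

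Genes that lie head to head can share the stretch between their start sites as a promoter, from which one RNA polymerase starts in each direction. Such bidirectional promoters are well known in vertebrates, where they often lie in CpG islands and serve housekeeping genes, such as those of DNA repair. Partners may be active together because the open chromatin is shared, yet their levels can differ widely, since start sites, elongation and RNA stability differ between them. Tail-to-tail neighbours share no start region and so are the natural comparison at the same distance.

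The gap between head-to-head partners was mostly short. Its median was 228 bases in ON and 265 bases in PN, and the middle part of the pairs (25th to 75th percentile) lay between 96.5 and 501.5 bases in ON and between 113 and 590 bases in PN. A gap of 200 bases or less was found for 432 ON pairs (46.6%) and 332 PN pairs (39.3%), a gap above 200 and up to 500 bases for 260 and 264 pairs, and a longer gap for 235 and 249 pairs. Tail-to-tail gaps were about as short, with medians of 228 bases in ON and 208.5 bases in PN, whereas same-strand gaps were longer, with medians of 460 and 541 bases. Just inside the limit, within its last 100 bases, there were 43 ON and 58 PN head-to-head pairs with a median summed FPKM of 6.85 and 7.17. Just outside it, within the next 100 bases, there were 57 and 45 pairs at 6.31 and 6.30. A further 3 ON pairs and 1 PN pair that abut without a base between them fell outside the rule.

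**Figure D1:**
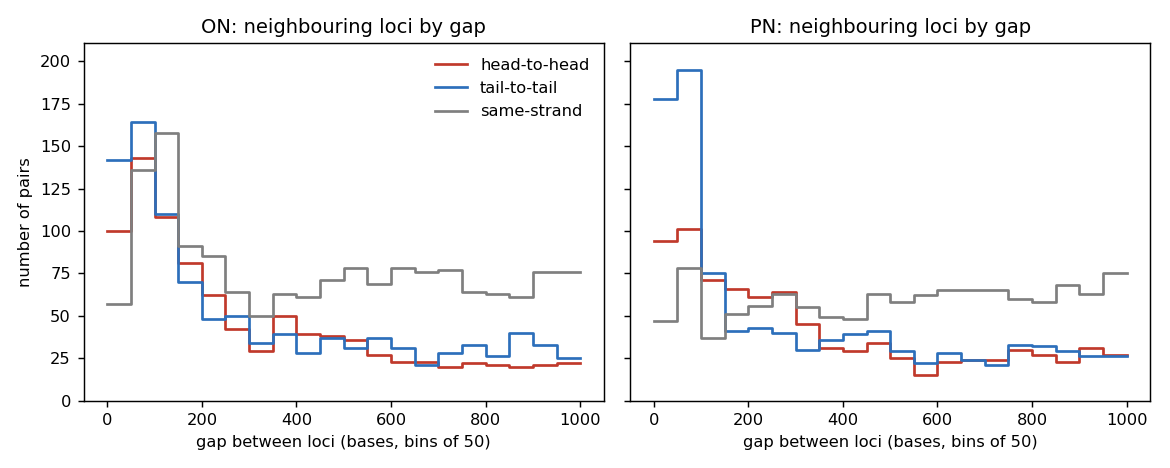
Number of pairs (y axis) by gap in bases (x axis, bins of 50 bases) for head-to-head, tail-to-tail and same-strand neighbours of ON and PN. Head-to-head pairs are most frequent in the bin of 51 to 100 bases, with 143 ON and 101 PN pairs. At 200 bases or less lie 432 of 927 ON pairs and 332 of 845 PN pairs.

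The gap depends on where transcripts were taken to begin. In 44.2% of the ON pairs and 46.4% of the PN pairs both loci consisted of a single transcript. The most abundant transcripts themselves set the gap in 713 ON pairs (76.9%) and 675 PN pairs (79.9%), and they began within 1000 bases of each other in 874 (94.3%) and 798 (94.4%). The gaps were almost free of other transcripts. Another spliced locus reached into the gap of 2 ON pairs and of no PN pair. Tail-to-tail gaps were about as free of one, with 3 ON and 2 PN pairs, whereas 53 and 13 same-strand gaps held one. A single-exon transcript reached into the gap of 3 head-to-head pairs of each species (0.324% in ON and 0.355% in PN). The shares were 1.17% and 3.64% of tail-to-tail gaps and 0.515% and 1.43% of same-strand gaps.

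Head-to-head loci were spread over 51 sequences in ON and 279 in PN. On the 23 ON sequences with at least 100 loci, the share of loci in a head-to-head pair ran from 4.06% to 12.5%, with a median of 8.97%. On the 43 such PN sequences it ran from 4.96% to 20%, with a median of 11.8%. The median genomic span was 6934 bases in ON and 6650 bases in PN, against 8292 and 8617 bases for all loci, 8081 and 7469 bases for tail-to-tail loci and 7668 and 7343 bases for same-strand loci, so that loci with a near neighbour were shorter in all 3 classes, while the median exon number was 8 in both (all loci, 7 in ON and 8 in PN). At the other end, where the transcript stops, 450 of 1854 ON loci (24.3%) and 435 of 1690 PN loci (25.7%) also had a neighbour within 1000 bases, against 16.6% and 17% of all loci. An overlap with a locus of the opposite strand was seen for 10.4% of them in ON and 4.38% in PN (all loci, 14.1% and 7.04%; tail-to-tail, 6.43% and 4.0%; same-strand, 9.99% and 4.93%). These figures describe one merged transcript set per species and so have no replicate error.

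A locus is called expressed here when its FPKM was 1 or more in each of the 3 libraries of its species. More of the head-to-head loci than of the loci at large were expressed, namely 1086 of the 1854 ON loci (58.6%, against 43.0% of all ON loci) and 1179 of the 1690 PN loci (69.8%, against 55.0% of all PN loci). The share in tail-to-tail loci was 54.3% in ON and 61.2% in PN, and in same-strand loci 50.4% and 61.2%. The median FPKM of a head-to-head locus was 2.1 ± 0.15 in the 3 ON libraries (mean ± SD) and 2.97 ± 0.28 in the 3 PN libraries, compared with 0.896 ± 0.003 and 2.0 ± 0.17 over all loci. Tail-to-tail loci, at 1.73 ± 0.05 and 2.50 ± 0.21, and same-strand loci, at 1.46 ± 0.07 and 2.51 ± 0.25, also lay above all loci. In each of the 6 libraries the median lay higher for head-to-head loci than for all loci, by 1.03 to 1.31 FPKM in ON and by 0.812 to 1.2 in PN. With 3 fish of a species, a two-sided exact sign-flip permutation test cannot go below the p = 0.25 it gave. The libraries of a species share one set of loci, so this test speaks of the fish and not of another choice of loci. Loci at 0 in every library of the species numbered 2 in ON and 1 in PN among head-to-head loci. Tail-to-tail loci had 2 and 0 of them and same-strand loci 3 and 1, and unexpressed transcripts had been removed beforehand.

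The excess was one of moderate abundance. With the minimum raised to an FPKM of 5, head-to-head loci stood at 21.2% in ON and 27.5% in PN (all loci, 17.2% and 24.4%), and tail-to-tail loci at 22.8% and 28.1%. With a minimum of 10 they stood at 10.8% and 13.6% (all loci, 9.49% and 13.3%). Thus head-to-head loci exceeded tail-to-tail loci at an FPKM of 1 and no longer did at 5. Together the head-to-head loci held 6.0% ± 0.4 of the summed FPKM of all ON loci (SD, n = 3) and 5.46% ± 0.14 of that of all PN loci, while they were 8.53% and 9.09% of the loci.

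Both partners were expressed together more often than in the other orientations. Both loci were expressed in 337 of 927 head-to-head pairs in ON (36.4%) and in 425 of 845 in PN (50.3%). Over the neighbouring pairs of all 3 classes these percentages were 31.7% in ON and 42.6% in PN. For tail-to-tail pairs they were 30.4% and 38.4%, and for same-strand pairs 29.7% and 40.6%. Of the remaining head-to-head pairs, 412 in ON and 329 in PN had a single partner at this level throughout, and 178 and 91 had none. Counted library by library, 43.6% ± 1.5 (SD, n = 3) of ON pairs and 57.8% ± 3.1 (SD, n = 3) of PN pairs had both partners at an FPKM of at least 1. The excess over tail-to-tail pairs was 6.41 to 9.18 percentage points in the 3 ON fish and 11 to 14.2 points in the 3 PN fish, and over same-strand pairs 7.04 to 8.90 and 8.43 to 10.2 points. Each of these 4 differences had the same sign in all 3 fish (two-sided exact sign-flip permutation test, p = 0.25, the smallest possible). At an FPKM minimum of 5 in place of 1 the excess in ON turned to -0.86 points against tail-to-tail and -0.70 points against same-strand pairs. In PN it shrank to 0.73 and 0.24 points.

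Joint expression stayed close to what the shares of the single loci give. In ON the minus-strand locus was expressed in all 3 libraries in 59.3% of head-to-head pairs and the plus-strand locus in 57.8%. The product of these shares is 34.3%, compared with the 36.4% of pairs in which both were expressed. In PN the product was 48.7% and the observed share 50.3%. Tail-to-tail pairs were at 30.4% against a product of 29.4% in ON and at 38.4% against 37.4% in PN, and same-strand pairs at 29.7% against 26.0% and 40.6% against 37.5%. In each class and species the observed share lay above the product, and furthest above it in same-strand pairs, not in head-to-head pairs.

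The lower partner was more abundant in head-to-head pairs than in both other classes. Its median FPKM was 0.736 ± 0.038 (SD, n = 3) in ON, compared with 0.375 ± 0.021 in tail-to-tail and 0.405 ± 0.029 in same-strand pairs. In PN it was 1.41 ± 0.16 (SD, n = 3), compared with 0.716 ± 0.074 and 0.913 ± 0.127. In either species each head-to-head library lay above every library of both other classes. The higher partner had a median FPKM of 4.39 ± 0.38 (SD, n = 3) in head-to-head and 4.53 ± 0.41 in tail-to-tail pairs of ON, and of 5.37 ± 0.40 and 5.66 ± 0.46 in PN. Within each fish the higher partner was a little lower in head-to-head than in tail-to-tail pairs, by 0.105 to 0.180 FPKM in ON and 0.215 to 0.336 in PN (two-sided exact sign-flip permutation test, p = 0.25, n = 3 fish, the smallest possible). Against same-strand pairs it was higher in every ON fish, by 0.408 to 0.645 FPKM (4.39 against 3.82, p = 0.25 by the same exact test), whereas in PN the difference ran from -0.207 to 0.267.

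**Figure D2:**
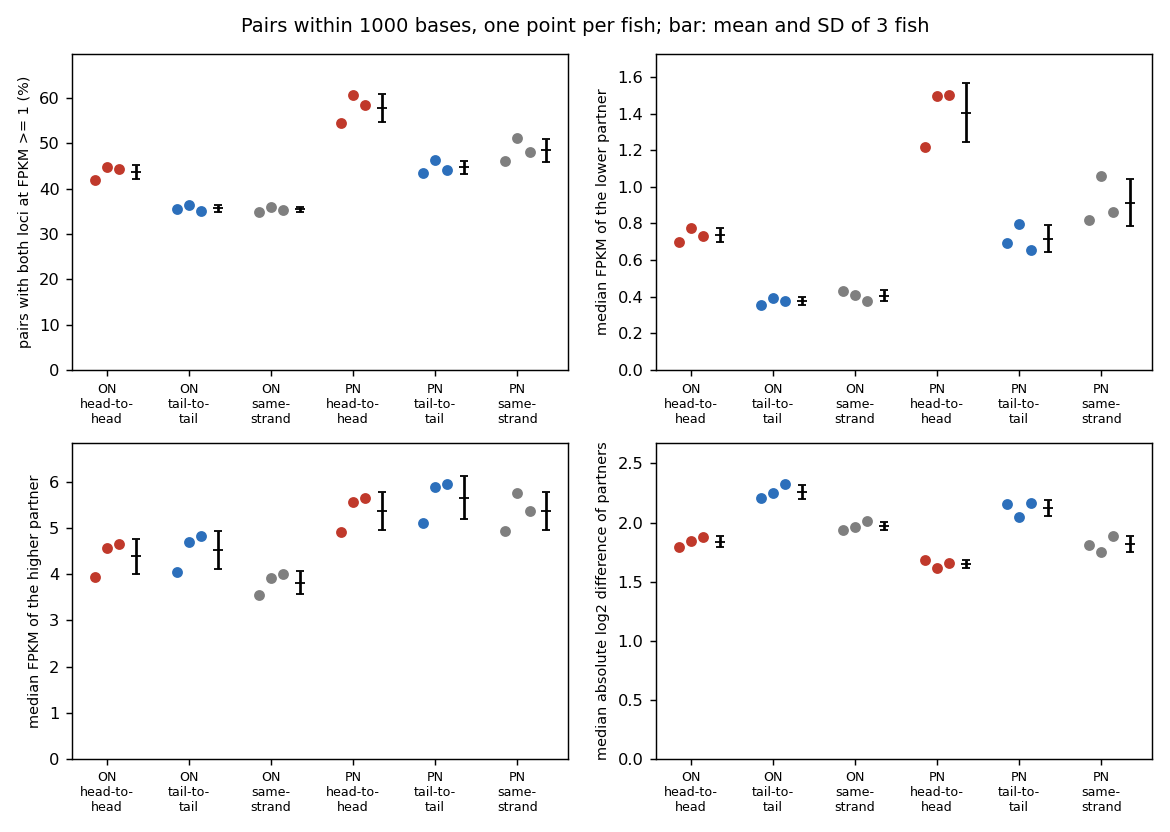
Pairs with both loci at an FPKM of at least 1 (percent), median FPKM of the lower and of the higher partner, and median absolute log2 difference of the partners, for 3 pair classes of ON and PN. Each point is one fish and bars give mean and SD of 3 fish; head-to-head pairs lie above both other classes for the lower partner, for example 0.736 against 0.375 and 0.405 in ON.

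Accordingly, partners were closer in level head to head than tail to tail. Over pairs with both loci above 0 in all 3 libraries (719 in ON and 706 in PN), the median absolute log2 difference, computed from FPKM + 0.1, was 1.84 ± 0.05 in ON (SD, n = 3 fish), a 3.58-fold difference, and 1.65 ± 0.03 in PN, a 3.14-fold difference. In tail-to-tail pairs it was 2.26 in ON and 2.12 in PN, and in same-strand pairs 1.97 and 1.81. The head-to-head value was lower in each fish, by 0.41 to 0.44 against tail-to-tail pairs in ON and by 0.43 to 0.51 in PN (two-sided exact sign-flip permutation test, p = 0.25, n = 3 fish, the smallest possible). Among pairs with both loci expressed, the difference from tail-to-tail pairs was -0.12 in ON and -0.22 in PN, and with a pseudocount of 1 it was -0.24 and -0.25. Against same-strand pairs the difference was smaller, -0.13 in ON and -0.16 in PN, and with a pseudocount of 1 it was -0.095 and -0.11. Among pairs with both loci expressed it shrank to -0.048 in ON and to -0.025 ± 0.077 in PN (SD, n = 3). This PN value lay within the spread between fish. Of the head-to-head pairs with both loci expressed, partners lay within 2-fold in 143 of 337 in ON (42.4%) and 187 of 425 in PN (44%). They were more than 10-fold apart in 46 (13.6%) and 53 (12.5%). Same-strand pairs were near these shares, with 42.0% and 43.9% within 2-fold and 13.2% and 11.6% more than 10-fold apart. Tail-to-tail pairs had 40.4% and 36.7% within 2-fold and 16.3% and 15.8% more than 10-fold apart.

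The level of a partner said little about that of the other. Across head-to-head pairs Spearman's rho between the partners was 0.078, 0.097 and 0.097 in the 3 ON fish and 0.085, 0.083 and 0.068 in the 3 PN fish. These are correlations across pairs measured in the same library, and pairs are not replicates. The tail-to-tail mean was -0.013 in ON and 0.048 in PN, and the same-strand mean 0.073 and 0.097. No order of the classes held: among pairs with both loci expressed, rho in ON was 0.083 lower head to head than tail to tail. So weak a relation in one library is no finding. In the plot of partner levels the points fill the field on both sides of the line of equal level, and neither strand was favoured. The minus-strand locus was higher in all 3 fish in 405 ON and 361 PN pairs, and the plus-strand locus in 382 and 385.

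**Figure D3:**
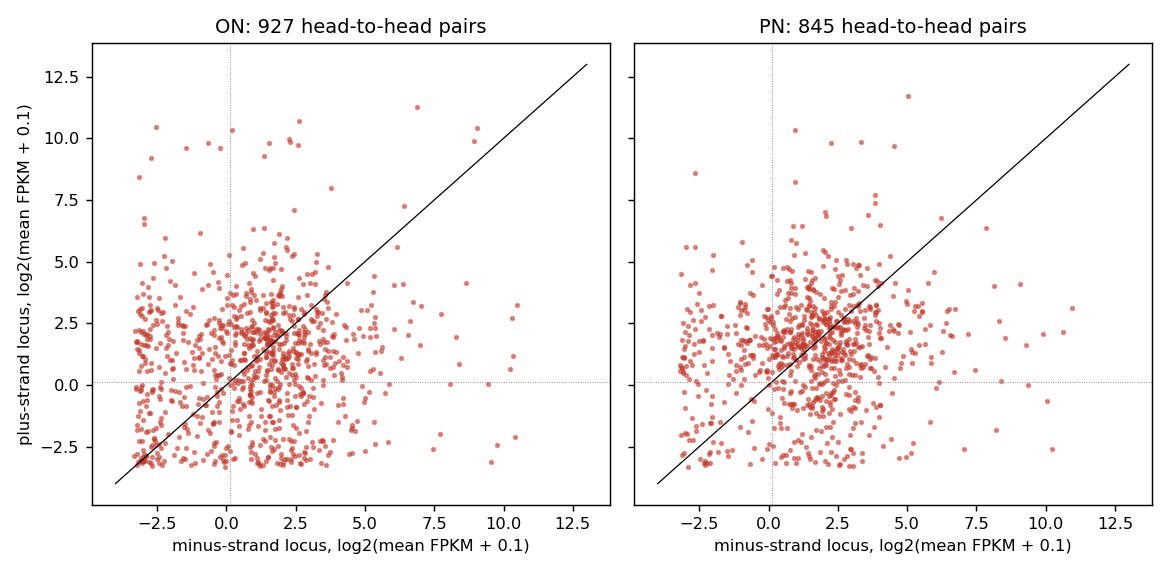
Mean abundance over 3 fish, log2(FPKM + 0.1), of the minus-strand locus (x axis) and the plus-strand locus (y axis) of each of 927 ON and 845 PN head-to-head pairs; the solid line marks equal levels and dotted lines an FPKM of 1. Points scatter widely around the line, with a median absolute difference of 1.84 log2 units in ON and 1.65 in PN.

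In most pairs the fish shared the higher partner. The same partner was higher in all 3 libraries in 787 of 927 ON pairs (84.9%, against 84.2% of the neighbouring pairs of all 3 classes) and in 746 of 845 PN pairs (88.3%, against 85.8%). These shares are near those of neighbours at large. Among pairs with both partners expressed, the SD over the 3 fish of the log2 ratio of the partners had a median of 0.34 in ON and 0.31 in PN, and that of the log2 summed FPKM a median of 0.22 in both. Expressed head-to-head loci varied between fish about as much as all expressed loci, with a median SD of log2 FPKM of 0.27 and 0.26 against 0.28 and 0.27. When a locus was higher in one fish than in another, its partner tended weakly to be so as well. The log2 changes between 2 fish had a rho across head-to-head pairs of 0.116 to 0.180 in ON and 0.133 to 0.169 in PN over the 3 fish comparisons, and the partners moved the same way in 51.5% to 59.0% and 56.7% to 57.8% of pairs. For tail-to-tail pairs rho was 0.090 to 0.121 in ON and 0.012 to 0.127 in PN, and for same-strand pairs 0.102 to 0.172 and 0.145 to 0.184. The partners moved the same way in 53.0% to 54.1% of tail-to-tail pairs in ON and 49.9% to 56.1% in PN. For same-strand pairs this share was 53.8% to 57.3% and 54.0% to 55.5%. The ranges of this share overlapped in ON, whereas in PN the head-to-head share lay above both other classes in all 3 fish comparisons. That difference was not tested. Same-strand neighbours share no start site but overlapped the head-to-head range of rho, so by rho the co-change was not particular to head-to-head pairs.

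Within 1000 bases, joint expression fell with the gap in PN and was level in ON. For this profile pairs with another locus in the gap were left out. In PN both partners had an FPKM of at least 1 in 62.8% ± 2.7 (SD, n = 3) of pairs at 1 to 200 bases, in 60.2% ± 3.8 up to 500 bases and in 48.7% ± 2.8 from there to 1000 bases. In ON the corresponding values were 44.0% ± 1.3, 43.4% ± 1.8 and 43.2% ± 1.9 (SD, n = 3). Between head-to-head neighbours above 1000 and up to 5000 bases apart the share was 37.5% ± 0.4 in ON and 46.4% ± 2.5 in PN, and from there to 20000 bases 27.0% ± 0.4 and 36.8% ± 2.3. The fall with distance was seen in tail-to-tail neighbours too, which went from 35.3% at 1 to 200 bases to 21.5% at 5000 to 20000 bases in ON and from 46.2% to 33.7% in PN. Same-strand neighbours went the other way within 1000 bases, with 24.8%, 37.0% and 41.9% in the 3 successive gap ranges in ON and 44.0%, 46.1% and 50.7% in PN. In the range of 500 to 1000 bases the same-strand share in PN, 50.7% ± 2.7 (SD, n = 3), was thus no lower than the head-to-head share of 48.7% ± 2.8. The difference in level between head-to-head partners grew with the gap, from 1.84 log2 units at 1 to 200 bases to 2.23 at 5000 to 20000 bases in ON and from 1.64 to 2.25 in PN. The tail-to-tail values at the longest gaps were 2.26 and 2.37. Within 1000 bases, same-strand pairs of PN were at 1.61, 1.93 and 1.83 in the 3 successive gap ranges, against 1.64, 1.53 and 1.83 head to head. In ON they were at 2.05, 1.87 and 1.99, against 1.84, 1.80 and 1.88. In PN, head-to-head partners were thus closer than same-strand partners in the middle range only.

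**Figure D4:**
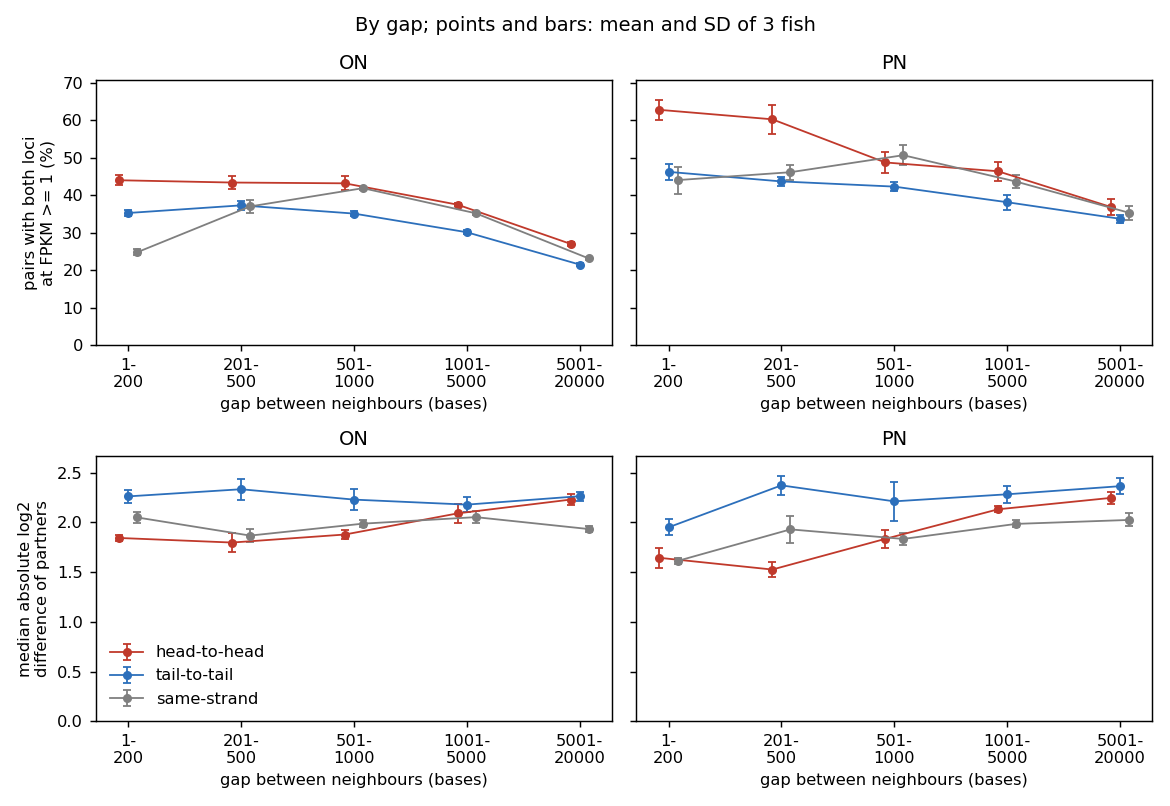
Share of neighbouring pairs with both loci at an FPKM of at least 1 (top, percent) and median absolute log2 difference of the partners (bottom) by gap in bases, for 3 pair classes of ON and PN; points and bars are mean and SD of 3 fish. Head-to-head pairs of PN fall from 62.8% at 1 to 200 bases to 36.8% at 5000 to 20000 bases.

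The pairs with the most abundant lower partner included some of like level and some that were very unequal. In ON the first was mRNA28447 and mRNA28449 on NC_031982.1, whose loci run from 15512705 to 15543241 and from 15543813 to 15574844 with 571 bases between them. The minus-strand FPKM was 558, 527 and 504, and the plus-strand FPKM 1263, 1013 and 1790. The latter was thus higher in every fish and the ranges did not overlap, and the loci were lowest in different fish. The next, mRNA8889 and mRNA8890 on NC_031969.1 (12417807 to 12418728 and 12419420 to 12420293), is a pair of short loci of 3 exons each. They were at 646, 251 and 558 and at 1170, 513 and 1132, and both were lowest in the same fish. In mRNA30297 and mRNA30299 on NC_031983.1 (19113176 to 19115743 and 19115905 to 19122081, gap 161 bases) the values were 105, 72.3 and 79.3 against 183, 117 and 163. Here too, both were lowest in the same fish. In mRNA19945 and mRNA19946 on NC_031976.1, each of 2 exons with a gap of 341 bases, the minus-strand locus was at 71.8 ± 2.3 and the plus-strand locus at 48.8 ± 15.2 (SD, n = 3). These loci were also lowest in the same fish.

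In PN the first was mRNA14670 and mRNA14672 on NW_005187446.1 (902106 to 910487 and 911236 to 914525, gap 748 bases), with an FPKM of 278, 224 and 189 against 88.6, 84.2 and 72.5. The pair mRNA8722 and mRNA8725 on NW_005187419.1, of 3 exons each and 920 bases apart, was at 114, 46.3 and 62.4 and at 149, 68.0 and 112. In both of these pairs the loci were lowest in the same fish. In mRNA33910 and mRNA33911 on NW_005187642.1 (gap 119 bases) the loci were at 63.2 ± 8.0 and 23.8 ± 5.3 (SD, n = 3). The minus-strand locus was higher in every fish, and the loci were lowest in different fish. The other 3 pairs chosen by this rule were unequal. The lower and the higher partner were at 119 and 2443 in mRNA1320 and mRNA19912 of ON, a 20.6-fold difference, and at 32.6 and 3320 in mRNA26775 and mRNA26776 of PN, a 102-fold difference. In mRNA2640 and mRNA2641 of PN (NW_005187402.1, gap 66 bases) the levels were 23.1 ± 1.6 and 828 ± 104 (SD, n = 3), a 35.9-fold difference. In each of these 3 unequal pairs the loci were lowest in different fish. Both loci were, however, highest in the same fish in mRNA26775 and mRNA26776 and in mRNA2640 and mRNA2641. How often partners share their lowest fish over all pairs was not counted, so no trait of like or unequal pairs follows. Pairs with both partners abundant were few. A mean FPKM of at least 10 in both partners was reached by 18 ON pairs and 26 PN pairs, and of at least 50 by 4 and 2. Counted as at least 10 in all 3 libraries, the share was 1.29% in ON and 2.49% in PN. This was less than in tail-to-tail pairs (1.56% and 3.44%) and same-strand pairs (1.74% and 3.71%). At 50 the shares were 0.431% and 0.118%, against 0.097% and 0.101% tail to tail and 0.193% and 0.590% same-strand.

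The pairs with the highest sum owed it to a single partner in most cases. In ON mRNA1320 and mRNA19912 on NC_031976.1 (20016705 to 20025242 and 20026150 to 20029460, gap 907 bases) summed to 2636, 2636 and 2414, of which the plus-strand locus gave 2451, 2564 and 2314 and the minus-strand locus 185, 71.2 and 99.6. The ON pair mRNA24578 and mRNA24579 on NC_031979.1, 58 bases apart, was at 6.12 ± 1.0 against 1674 ± 138 (SD, n = 3), a 273-fold difference. In PN mRNA26775 and mRNA26776 on NW_005187532.1 (gap 156 bases) were at 22.7, 51.9 and 23.4 against 3807, 4469 and 1685. The PN pair mRNA24313 and mRNA1753 on NW_005187508.1 (gap 107 bases) stood at 1964 ± 133 against 8.56 ± 0.75 (SD, n = 3), and mRNA3551 and mRNA3552 on NW_005187404.1 (gap 61 bases) at 1560 ± 162 against 4.35 ± 0.79. A gap of 58 or 61 bases thus separated loci that differed 273-fold and 358-fold.

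In 5 of the 6 most unequal pairs the weak partner was at or under the floor of 3 reads in at least 1 fish. The ON pair mRNA40104 and mRNA40105 on NW_017615992.1, 82 bases apart, was at an FPKM of 1420, 1196 and 1518 against 0.109, 0.233 and 0.054, with a floor of 0.055 for the latter. The ON pair mRNA15092 and mRNA15094 on NC_031972.1, 356 bases apart, was at 941, 735 and 953 against 0.161, 0.065 and 0.032 (floor 0.049). In mRNA29043 and mRNA29044 on NC_031982.1, 88 bases apart, a minus-strand locus of 93 exons was at 0.055, 0.005 and 0.020 (floor 0.008) and its partner of 9 exons at 73.6, 66.6 and 136. In PN the 3 such pairs were mRNA12802 and mRNA12803 (gap 399 bases) at 1207 ± 86 against 0.064 ± 0.027 (SD, n = 3; floor 0.058), mRNA43010 and mRNA43011 (gap 59 bases) at 1044 ± 48 against 0.546 ± 0.210 (floor 0.041), and mRNA11957 and mRNA11958 (gap 157 bases) at 287, 342 and 253 against 0.005, 0.481 and 0.065 (floor 0.009). In mRNA43010 and mRNA43011 the weak partner lay above its floor in every fish, and the levels differed 1913-fold. No ratio is given for the other 5 pairs.

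Pairs with both partners expressed were found down to a gap of a single base. In ON mRNA6146 and mRNA6148 on NC_031967.1 were separated by 1 base (minus-strand end 9410326, plus-strand start 9410328). They stood at 6.94 ± 0.54 and 7.32 ± 1.36 (SD, n = 3), levels that did not differ beyond the spread between fish. In mRNA20080 and mRNA20081 on NC_031976.1, 2 bases apart, the levels were 2.54 ± 0.29 and 6.03 ± 0.37, and in mRNA30255 and mRNA30256 on NC_031983.1, 3 bases apart, 3.87 ± 0.35 and 12.0 ± 2.2. In PN mRNA7015 and mRNA7017 on NW_005187412.1, 2 bases apart, were at 10.3 ± 0.8 and 2.88 ± 0.37. The pair mRNA7624 and mRNA7627 on NW_005187414.1, also 2 bases apart, was at 91.3 ± 21.8 and 8.42 ± 0.55, and mRNA6763 and mRNA6765 on NW_005187411.1, 3 bases apart, at 7.34 ± 0.66 and 1.55 ± 0.20. At these gaps the assembled ends nearly touch, and how reads at the ends were assigned was not tested.

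The sums that varied most between fish rested on a single locus in 3 of 4 pairs. In ON mRNA19621 on NC_031976.1 was at an FPKM of 148, 4.73 and 33.0. Its partner mRNA19620, 111 bases away, was at 0.207, 0.103 and 0.0305, the last just under its floor of 0.0307. The ON locus mRNA30453 on NC_031983.1 was at 27.8, 3.88 and 1.54, and its partner mRNA30454 at 0.314 and, in the other 2 fish, listed at 0. In PN mRNA36212 on NW_005187700.1 was at 34.0, 7.41 and 6.61, and its partner mRNA36214 at 1.40 and, in the other 2 fish, listed at 0. In mRNA36559 and mRNA36560 on NW_005187710.1, 20 bases apart, both loci fell in the same order of fish, from 2.99 and 0.367 to a listed 0 and from 5.57 and 4.53 to 1.01.

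Several of these pairs had a counterpart of the same structure in the other species. The 3 most unequal PN pairs had partners of 10 and 18, 6 and 11, and 9 and 93 exons, and the 3 most unequal ON pairs had the same exon numbers, with the same partner being the abundant one. After this was seen, head-to-head pairs of ON and PN were matched where both partners had the same exon number and lengths within a factor of 1.1, and where a pair had a single candidate in the other species. This gave 141 matched pairs, 15.2% of the ON pairs and 16.7% of the PN pairs, with the strands exchanged in 72 of them. The match rests on structure alone. Whether matched pairs hold the same genes was not tested, and chance matches are included. When tail-to-tail pairs were matched in the same way, some loci received a different counterpart. The PN locus mRNA3552, for example, was matched to mRNA24578 of ON head to head and to mRNA14943 of ON tail to tail. Not every match can thus be between the same genes.

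The partner that was higher in ON was the higher in PN in 121 of the 141 matched pairs (85.8%), and in 77 of the 84 pairs in which the partners differed more than 2-fold in both species. Across the 141 pairs rho between the species was 0.736 for the log2 ratio of the partners and 0.682 for the gap. Neither was a criterion of the match, but some pairs whose shared direction prompted the matching are among the 141. What share unrelated pairs of like exon number and length would give was not tested. In 65 pairs the gaps agreed to within 50 bases. The longest transcripts of the ON pair mRNA15092 and mRNA15094 had 1270 and 2327 bases, with a gap of 356 bases. Those of the PN pair mRNA12802 and mRNA12803 had 1240 and 2311 bases, with a gap of 399 bases. The levels of these loci were 876 and 0.086 in ON and 1207 and 0.064 in PN. The pair mRNA24578 and mRNA24579 matched mRNA3552 and mRNA3551, with gaps of 58 and 61 bases, levels of 6.12 and 1674 in ON and of 4.35 and 1560 in PN. The pair mRNA29043 and mRNA29044 matched mRNA11958 and mRNA11957, the locus of 93 exons being at 0.027 in ON and 0.184 in PN and that of 9 exons at 92.1 and 294.

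A second ON pair, mRNA35963 and mRNA35964 on NC_031987.1, shared the 11 and 6 exons of mRNA40105 and mRNA40104 and was at 1.04 and 1301. By length it was this pair, and not mRNA40104 and mRNA40105 on the unplaced sequence, that matched mRNA43011 and mRNA43010 of PN. Whether the ON pairs are copies that share reads was not tested, so their separate levels are uncertain. Like this pair, the next was chosen after its values were seen. An exception to the shared direction was mRNA20513 and mRNA1447 of ON, at 0.011 and 7.81, whose match in PN, mRNA3812 and mRNA3813, was at 43.1 and 2.96. Tail-to-tail pairs matched in the same way gave 128 pairs with a rho of 0.589 for the ratio and 0.619 for the gap. The same partner was higher in 94 of them (73.4%), and in 68 of the 80 that differed more than 2-fold in both species. In 60 of the 128 the gaps agreed to within 50 bases. The likeness between species was therefore seen in both orientations, and the difference between orientations was not tested.

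**Figure D5:**
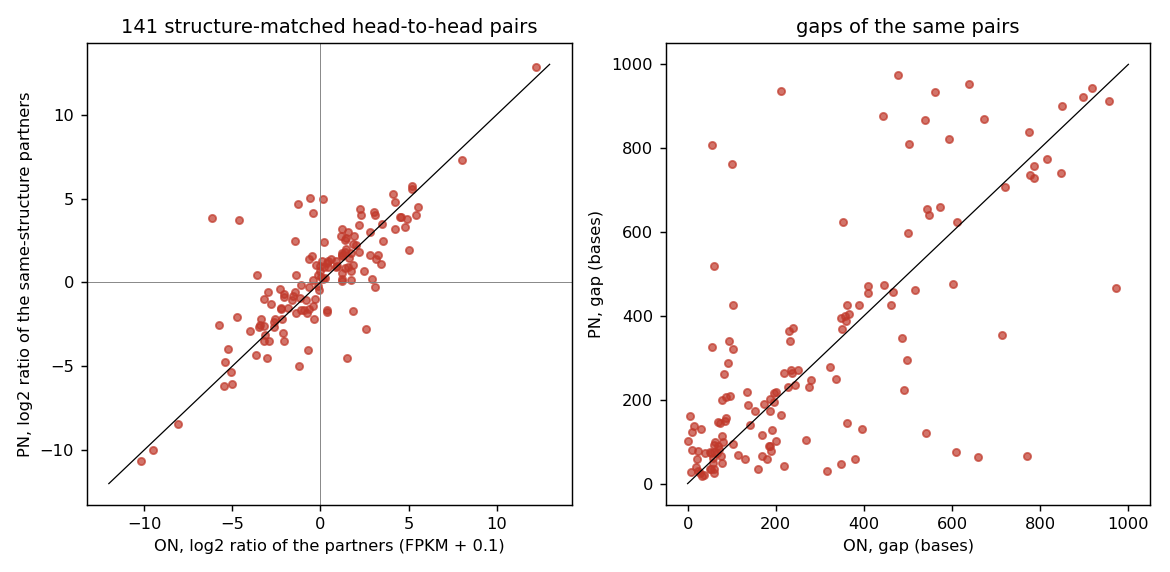
Left, log2 ratio of the partners (FPKM + 0.1, means of 3 fish) in ON (x axis) and in PN (y axis) for 141 head-to-head pairs matched by exon number and length; right, gap in bases of the same pairs; lines mark equality. In 121 pairs the same partner is higher in both species.

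Between the species, both partners were expressed in a larger share of the head-to-head pairs of PN. Both partners had an FPKM of at least 1 in 57.8% of PN pairs against 43.6% of ON pairs, a difference of 14.2 percentage points. The product of the shares of the single partners was 56.4% in PN and 40.8% in ON, so the shares of single loci already give a gap of this order. The share of single head-to-head loci at that level differed by 11.2 points. The median absolute log2 difference was 0.18 lower in PN. Every PN library lay beyond every ON library in the observed joint share and in this median difference. For each, p was 0.10 in a two-sided exact permutation of the 6 fish, the lowest that 3 against 3 allows. The difference in partner levels was not separated from the spread between fish with a pseudocount of 1 (-0.04, p = 0.50) or among pairs with both loci expressed (-0.03, p = 0.70, both by the same exact permutation). The genome, annotation and transcript set change with the species, so that their part cannot be told apart from that of the fish. Over all loci too, the share at an FPKM of at least 1 was higher in PN, 61.5% ± 1.7 against 48.4% ± 0.1 (SD, n = 3).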

How the data were processed

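Total RNA of liver from 3 ON and 3 PN was sequenced after ribosomal RNA depletion. The authors aligned the reads with HISAT2 2.1.0 to ASM185804v2 (ON) and PunNye1.0 (PN) and assembled transcripts with Stringtie and the reference annotation, and the replicates of a species were merged into one set, from which unexpressed transcripts were removed and in which very similar ones were joined. The authors deposited for each library the FPKM and the per-base coverage of every transcript, and neither is a read count, so that no count model was used. Whether the assembly used a strand option is not known here.

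Loci, pairs and measures were computed from the deposited FPKM in Python (3.11.15), using pandas (2.3.3) and numpy (2.4.6) for tables, scipy (1.17.1) for tests and matplotlib (3.10.9) for plots. Log2 values used a pseudocount of 0.1. Coverage over FPKM gave the aligned bases. For between-fish changes, log2 values were centred on the median over loci above 0 in all 3 libraries. Fish, not pairs, were the unit of the exact tests. The named pairs of each species were the 5 with the highest lower partner, the 3 with the smallest gap among pairs with both partners at an FPKM of at least 1, the 3 with the highest sum, the 3 most unequal with both partners above 0, and the 2 with the most variable sum. The members and rules were chosen with earlier results of these data known. The programs were tested on simulated data. The matching of pairs between species was added after seeing the data. No genome or annotation of the 2 builds was used here, so that no gap sequence was read and no gene named. Alternatives covered FPKM minimums, pseudocounts, filters, gap limits, scaling and left-out libraries.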

Additional observations from a re-analysis of the deposited data

Results flagged for a closer look

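The difference in partner rho between head-to-head and same-strand pairs had opposite signs in the species. It was 0.0175 in ON, above 0 in all 3 fish, and -0.0186 in PN, below 0 in all 3 fish. The difference between the species was not tested, both values are small, and both signs depend on the settings given below.

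Of the single-exon transcripts that reach into a head-to-head gap, 3 lay above their floor of 3 reads in every library, and these were not used in the comparisons. All were in PN. The strandless transcript mRNA21000 on NW_005187482.1 from 280783 to 281272, between mRNA20999 and mRNA21001, was at an FPKM of 6.28, 7.58 and 8.13 with a mean of 7.33. The plus-strand transcript mRNA35767, between mRNA35766 and mRNA35768, had a mean of 2.44, and the plus-strand transcript mRNA40655, which overlaps the gap of 61 bases between mRNA40652 and mRNA40656, a mean of 2.08. No explanation was tested.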

How the results depend on the processing

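The matching by structure and its length factors were chosen after seeing the data. The higher share of pairs with both loci expressed and the smaller partner difference against tail-to-tail pairs kept their direction under each alternative run, except for an FPKM minimum of 5. There the ON excess was -0.859 points against tail-to-tail and -0.700 points against same-strand pairs, and pairs with both loci expressed fell to 42 in ON and 79 in PN. With single-exon stranded transcripts included, the partner difference against same-strand pairs turned to 0.027 in ON and 0.097 in PN.

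Differences of partner rho turned under many settings. Without a filter, head-to-head minus same-strand in ON was -0.080 and PN minus ON 0.017. With both loci at an FPKM of at least 1, head-to-head was lower in ON by tail-to-tail (-0.083) and same-strand (-0.043) comparison, and PN minus ON was 0.044. With gaps up to 500 bases the same-strand comparison gave -0.0058 in ON and 0.035 in PN, and PN minus ON 0.063. With gaps up to 2000 bases it gave -0.043 in ON, and the tail-to-tail comparison -0.015 in PN. With pairs near another locus left out, the PN values were -0.00010 against tail-to-tail and 0.0067 against same-strand pairs. The causes were not tested.

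Leaving out one library, head-to-head minus same-strand rho ran from -0.024 to 0.0077 in ON and PN minus ON from -0.025 to 0.012. Co-change against same-strand pairs turned to 0.021 in PN with both loci at an FPKM of at least 1, to -0.061 in ON with single-exon transcripts, to -0.023 in ON with gaps up to 500 bases, to 0.0046 in PN with pairs near another locus left out, and ran from -0.010 to 0.050 in PN without one library. The log2 ratio of mRNA6146 to mRNA6148 ran from -0.25 to 0.11 without one library. With a narrower and a wider length factor, the same partner was higher in 90.2% and 75.4% of 92 and 195 matched head-to-head pairs, and in 81.3% and 67.7% of tail-to-tail pairs.

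The replicate numbers of the species mark different fish, so that the samples share only a number. With a replicate block (exact sign-flip permutation), PN minus ON was 14.2 points for both loci expressed (p = 0.25, the smallest possible), -0.18 for the partner difference (p = 0.25) and -0.012 for rho (p = 0.50). A count of 3 reads gives an FPKM of 0.113 to 0.133 at 1 kb, so that order below this level is not resolved.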
